A study of Mus musculus with 2 samples.

Results

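Long noncoding RNAs of the nucleus and the transcripts that carry small nucleolar RNAs (snoRNAs) in their introns were examined in mouse marrow progenitors transduced with Satb1 or with GFP. The group comprised 6 genes, Malat1, Neat1, Gas5, Snhg1, Snhg3 and Snhg12, and every probe set that the platform annotation gives to exactly 1 of these symbols was taken. This gave 20 probe sets of the 45037 on the array. Former gene names added no further probe set. The genes were picked on their class with the levels and the Satb1 minus GFP differences of both arrays in view, so their values are described and not tested.

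Total RNA came from wild-type C57BL6J marrow cells labelled LSK Flt3-, which lack lineage markers and Flt3 and carry Sca-1 and high c-Kit. One group received GFP alone as the control transduction and the other received Satb1, which encodes a chromatin organiser that binds AT-rich DNA. There was 1 Affymetrix array per group, so no difference has a replicate error or a p-value, and the sources used here do not say how many animals or cultures stood behind an array. The question was which transcripts differ between the 2 transductions.

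The arrays are named by their labels. The 3 Satb1 probe sets over the floor on each array (a low-intensity limit of 61.7) were not higher on the array labelled Satb1, with log2 differences of -0.09, -0.30 and -0.81, and the sources used here do not say which part of the transcript they cover. Kit, the gene of the c-Kit antigen, read 3293 on the array labelled GFP against 3388 on that labelled Satb1. Flt3 RNA was present on both, at 1390 and 1334. Of 6 measured stem and progenitor markers, 1 was at least 2-fold apart: Slamf1, the CD150 gene, was 2.43-fold higher on the array labelled Satb1, at 233 against 95.7, by the only one of its probe sets over the floor. Of 6 measured lymphoid marker genes, 4 were below the floor on both arrays. Markers of 2 mature lineages included genes at least 2-fold apart. Of 8 granulocyte and monocyte markers, 5 were at least 2-fold higher on the array labelled Satb1 (0.272% of all genes above the floor were), where the summed intensity of all 8 was 38231 against 28621. Much of that sum was S100a8, at 10109 against 3094, and Mpo (16452 against 18391) and Csf1r (3549 against 4099) were lower. Of 4 mast cell and basophil markers, 3 were at least 2-fold lower (0.86% of all genes above the floor were), with a summed intensity of 7421 against 13696. All 4 megakaryocyte markers were higher, at 28914 against 25370 summed, with Ppbp 1.75-fold higher. Of 3 measured erythroid markers, 2 were above the floor and were higher, Klf1 by 1.59-fold. The lymphoid gene Cd8a was 1.66-fold higher by the only one of its probe sets over the floor, and Il7r was lower. None of these markers was at 0, and their part in the differences below was not tested. In RNA from a mixed cell fraction, fewer cells of a type and less RNA per cell cannot be told apart.

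Malat1 is a very abundant transcript that stays in the nucleus and gathers in nuclear speckles, the domains that store splicing factors. Its 3′ end is made by RNase P cleavage, which releases a small tRNA-like RNA and leaves a triple helix in place of a poly(A) tail. Neat1, encoded next to Malat1, is the scaffold of paraspeckles; its short isoform is polyadenylated and its long isoform ends as Malat1 does. Gas5, Snhg1, Snhg3 and Snhg12 are spliced transcripts whose introns hold snoRNAs, the guides for chemical modification and processing of ribosomal RNA. The spliced host RNA of this class typically begins with a terminal oligopyrimidine tract, as ribosomal protein mRNAs do, and Gas5 RNA is known to be degraded by nonsense-mediated decay. The labelling kit named in the labels copies RNA from its poly(A) end.

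The gene table placed Malat1, Neat1 and Snhg1 on chromosome 19, Gas5 on chromosome 1 and Snhg3 and Snhg12 on chromosome 4. No other gene of the table lies between Malat1 and Neat1, and 2 genes, Trnau1ap and Rcc1, lie between Snhg12 and Snhg3. Within Gas5 the table lists 8 snoRNA genes, among them Snord47, and within Snhg1 also 8, among them Snord22. Snhg3 holds 2, Snora73a and Snora73b, box H/ACA snoRNAs that take part in ribosomal RNA processing. Snhg12 holds 4, namely Snora16a, Snora44, Snora61 and Snord99.

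The transcription starts are shown because snoRNA hosts are known for pyrimidine tracts there, a feature that the choice of genes did not use. RefSeq promoter sequences (GRCm38.p6) were matched for 5 of the 6 genes, with 2 starts for Gas5. Neat1 had no entry. Each line gives 80 bases, 40 before the annotated start and 40 from it, read 5′ to 3′ on the gene's strand, and capitals mark the longest run of at least 5 C or T bases that overlaps the stretch from 5 bases before the start to the tenth base of the transcript.
Malat1, chr19:5802633-5802712, minus strand: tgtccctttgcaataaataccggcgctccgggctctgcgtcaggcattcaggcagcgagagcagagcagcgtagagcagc
Gas5 upstream start, chr1:161034561-161034640, plus strand: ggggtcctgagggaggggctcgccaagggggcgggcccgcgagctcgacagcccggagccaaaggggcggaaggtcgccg
Gas5 downstream start, chr1:161035126-161035205, plus strand: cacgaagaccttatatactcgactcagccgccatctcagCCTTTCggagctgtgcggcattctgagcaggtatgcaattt
Snhg1, chr19:8723447-8723526, plus strand: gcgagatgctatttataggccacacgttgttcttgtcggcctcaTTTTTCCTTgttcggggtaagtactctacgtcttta
Snhg3, chr4:132353647-132353726, minus strand: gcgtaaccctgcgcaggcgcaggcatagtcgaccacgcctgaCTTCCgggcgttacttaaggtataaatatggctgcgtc
Snhg12, chr4:132308638-132308717, plus strand: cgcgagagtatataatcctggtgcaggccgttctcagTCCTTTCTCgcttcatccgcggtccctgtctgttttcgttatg

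All 4 snoRNA hosts had such a run near one start, 6 bases long at the downstream start of Gas5, 9 in Snhg1, 5 in Snhg3 and 9 in Snhg12. It spanned the annotated start in Gas5 and Snhg12. In Snhg1 and Snhg3 it began only at bases 5 and 3 of the transcript. Malat1 and the upstream start of Gas5 had none in this window. Runs of this length are common, and 38.0% of the 32851 promoters in the table held one at the same place, searched on the gene's strand. The letters TATA, which read the same on both strands, were searched from 40 to 20 bases before the start. They began 29 bases before the downstream Gas5 start, 27 before that of Snhg1 and 32 before that of Snhg12, against 5.34% of all promoters that held them there. The motifs were chosen with these sequences in view, and a match is a description of the letters.

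The values were MAS5 intensities, which summarise the probe pairs of a probe set on a linear scale in arbitrary units. Intensities under 61.7, the median of all values, were set to that floor before log2 differences were taken (Satb1 minus GFP), since low MAS5 values are dominated by noise. All 20 probe sets exceeded the floor on 1 array or more, and 19 did so on both. The spread between replicate arrays could not be measured. As a yardstick, the middle 95% of all probe sets with a mean intensity over 2000 lay between -0.36 and 0.34 on the log2 scale. Probe sets bind with different strength, so differences were read between arrays, and brighter probe sets need not mean more RNA. The marker sums above and the closest genes below do combine or match intensities of different probe sets.

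Most probe sets of the nuclear RNAs were lower on the array labelled Satb1. Those of the snoRNA hosts went both ways within 1.5-fold, 5 lower and 6 higher (6 and 5 after quantile normalization). Of the 9 probe sets of Malat1 and Neat1, 6 were at least 1.5-fold lower, 2 of them at least 2-fold lower, and 0 were 1.5-fold higher with the floor applied. Without the floor, the dim Neat1 probe set was over 1.5-fold higher, with a log2 difference of 0.62. Of the 9, 7 were of Malat1. The 6 were 1428083_at of Neat1 and otherwise Malat1 probe sets, and the 2 past 2-fold share a source sequence. Among all 23685 probe sets above the floor, 7.08% were 1.5-fold lower and 2.32% were 1.5-fold higher, 1.61% were 2-fold lower and 0.325% 2-fold higher. After quantile normalization of the arrays those shares were 4.78% lower and 3.99% higher at 1.5-fold, and 1.03% lower and 0.575% higher at 2-fold. Of the 11 probe sets of the 4 hosts, 0 differed by 1.5-fold in either direction. Over the 8 nuclear RNA probe sets over the floor on each array, 7 of Malat1 and 1 of Neat1, the median log2 difference was -0.72. It was 0.02 over the 11 of the hosts, beside -0.03 over all 21336 such probe sets. These genes were grouped with results in view, and the shares describe this pair of arrays.

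**Figure D1:**
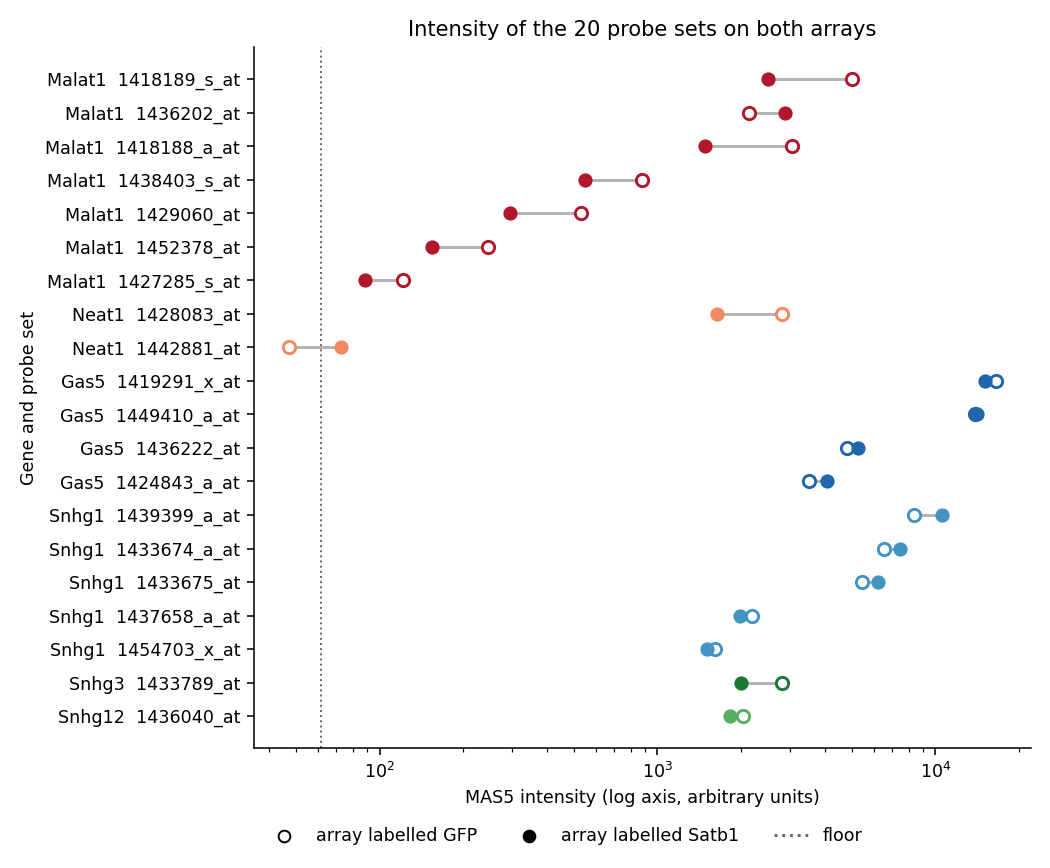
MAS5 intensity (log axis, arbitrary units) of each probe set on the array labelled GFP (open) and the array labelled Satb1 (filled), 1 array per group, with the floor of 61.7 dotted. The open point lies to the right of the filled one for 6 of 7 Malat1 probe sets, while the Gas5 points nearly coincide.

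Malat1 was measured by 7 probe sets. The brightest, 1418189_s_at, read 5012 on the array labelled GFP against 2500 on that labelled Satb1, 2-fold lower. Probe set 1418188_a_at gave 3054 and 1488, a log2 difference of -1.04. Both were designed from the same source sequence and so are not independent readings, and their differences lay 0.03 apart on the log2 scale.

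Another 4 Malat1 probe sets were also lower on the array labelled Satb1. Probe set 1429060_at gave 532 and 294, a log2 difference of -0.86. Probe set 1438403_s_at gave 877 and 547, a difference of -0.68. Of a second pair built on a common source sequence, 1452378_at read 246 and 154 (-0.67) and 1427285_s_at read 122 and 88.5 (-0.46). Among probe sets as dim as this last pair, 10.1% and 20.2% were at least as far below the control array.

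One Malat1 probe set went the other way. Probe set 1436202_at gave 2128 on the array labelled GFP against 2879 on that labelled Satb1, a log2 difference of 0.44, or 1.35-fold higher. It was bright, and 98.6% of the 4001 probe sets of mean intensity over 2000 had a smaller or equal difference. The brightest Malat1 probe set by contrast was among the 7 lowest of those 4001. The sources used here do not say where in the transcript each probe set lies, and the cause of the disagreement was not tested.

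The IDs of 3 Malat1 probe sets end in _s_at, which on this platform marks probes that match more than 1 transcript, possibly of different genes. Of the probe sets without that ending, 1418188_a_at, 1429060_at and 1452378_at were lower and 1436202_at higher. The median over all 7 was -0.68 and the mean -0.61.

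Neat1 was measured by 2 probe sets, of which only 1 was well above the floor. Probe set 1428083_at gave 2799 on the array labelled GFP against 1642 on that labelled Satb1, 1.70-fold lower, with a log2 difference of -0.77. It ranked 13th from the bottom among the 4001 bright probe sets, 0.325% of them. The other, 1442881_at, read 47.3 and 72.8. Its control value was below the floor, so it was at least 1.18-fold higher; without the floor its log2 difference was 0.62.

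**Figure D2:**
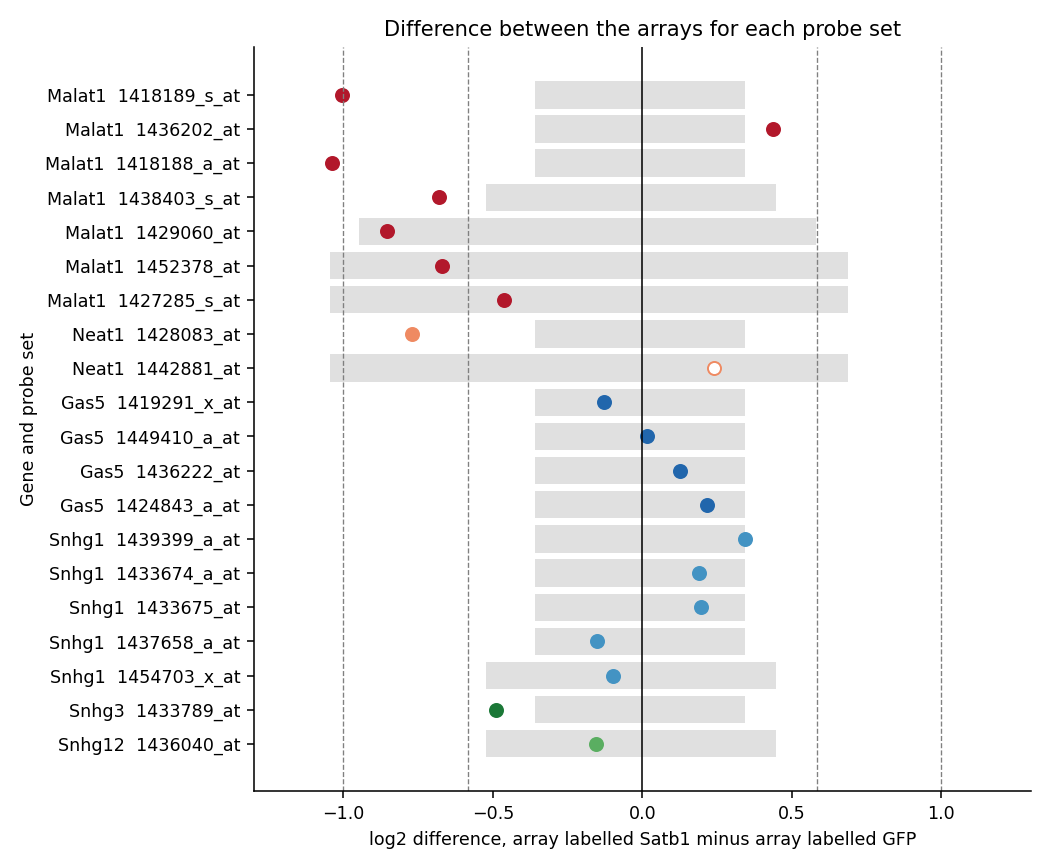
The log2 difference (array labelled Satb1 minus array labelled GFP) of each probe set; grey bars span the middle 95% of all probe sets in the same range of mean intensity, and dashed lines mark 1.5-fold and 2-fold. The open point is the Neat1 probe set below the floor on the array labelled GFP. Outside their bars lie 4 Malat1 probe sets (3 lower, 1 higher), 1 of Neat1 and that of Snhg3, while the Gas5, Snhg1 and Snhg12 probe sets lie inside.

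Gas5, named for its rise in growth-arrested cells, was bright and nearly level between the arrays in all 4 probe sets. Probe set 1419291_x_at gave 16480 on the array labelled GFP against 15065 on that labelled Satb1, a log2 difference of -0.13. Probe set 1449410_a_at gave 13912 and 14059, a difference of 0.02. The remaining 2, 1436222_at and 1424843_a_at, were higher by 0.13 and 0.22. All 4 differences lay inside the middle 95% of bright probe sets, and their direction was not the same.

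A further probe set, 1455904_at, is annotated to both Gas5 and Snord47 and so lies outside the 20. It read 3678 on the array labelled GFP against 2406 on that labelled Satb1, a log2 difference of -0.61. It did not follow the 4 probe sets given to Gas5 alone. Whether it measures the spliced host, the intron or the snoRNA precursor is not stated in the sources used here.

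Snhg1, the host of Snord22, was measured by 5 probe sets that differed in direction by small amounts. The brightest, 1439399_a_at, read 8356 on the array labelled GFP against 10593 on that labelled Satb1, 1.27-fold higher and the only one of the 11 host probe sets over 1.2-fold higher. The pair 1433674_a_at and 1433675_at, which share a source sequence, were both higher by 0.19 on the log2 scale. The other 2 were lower, 1437658_a_at at 2195 and 1977 (-0.15) and 1454703_x_at at 1615 and 1509 (-0.10).

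Snhg3 and Snhg12 had 1 probe set each, so agreement could not be examined. Snhg3 read 2809 on the array labelled GFP against 1999 on that labelled Satb1, 1.40-fold lower, with a log2 difference of -0.49. Of the 4001 bright probe sets, 1.12% were at least as far below the control array. Snhg12, its neighbour on chromosome 4, read 2026 and 1817, a log2 difference of -0.16. Snhg3 was thus the one host of the 4 outside the middle 95% of probe sets of its intensity range. The brightest Snhg1 probe set lay just inside the opposite edge, with 97.4% of the 4001 bright probe sets at or below its difference.

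**Figure D3:**
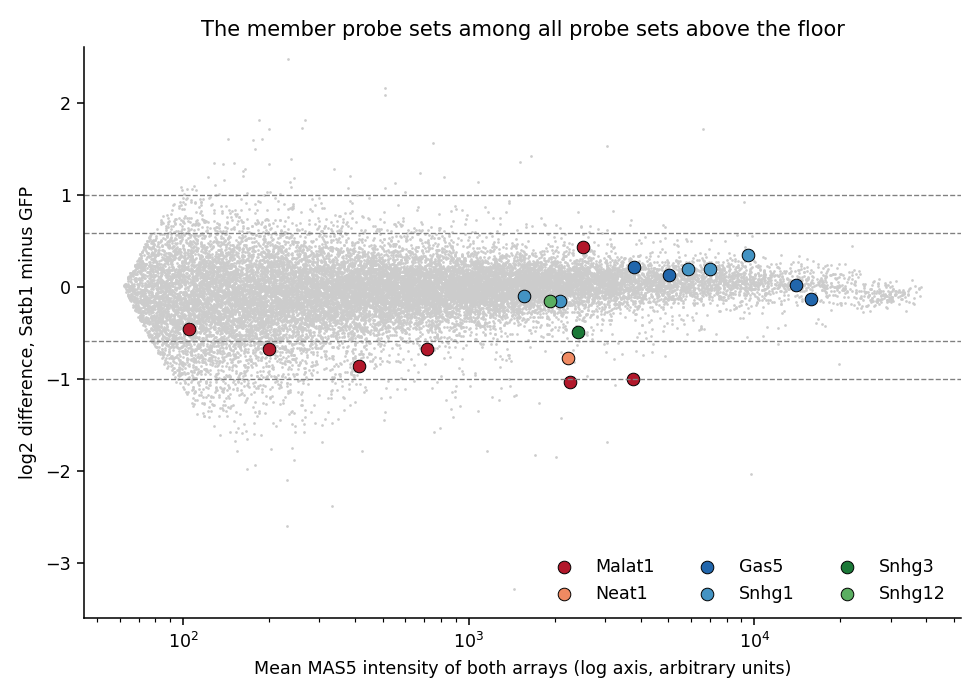
The log2 difference against the mean MAS5 intensity (log axis) of the 21336 probe sets over the floor on each array (grey), with the 19 member probe sets coloured by gene and dashed lines at 1.5-fold and 2-fold. The spread narrows with intensity, and the lower Malat1 and Neat1 probe sets over 2000 sit below nearly all others there, while 1 Malat1 probe set sits above.

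Agreement between probe sets of one RNA was then set beside that of other genes. The SD among probe sets of the log2 difference was 0.50 for Malat1 (n = 7 probe sets), 0.21 for Snhg1 (n = 5) and 0.15 for Gas5 (n = 4). Over the 2028 genes with at least 3 probe sets over the floor on each array the median SD was 0.20. Malat1 ranked 90th from the most discordant of these, Snhg1 946th and Gas5 1315th. Among the 332 genes with at least 5 such probe sets, Malat1 ranked 23rd and Snhg1 184th. The 2028 genes span all intensities. The pooled SD within genes was 0.13 for probe sets over 2000, where all Gas5 and most Snhg1 probe sets lay, and 0.35 under 200. Without the probe set that went the other way, a choice made after its value was seen, the Malat1 SD was 0.22. Opposing probe sets, at least 1.2-fold lower and at least 1.2-fold higher, were found in 221 of the 2028 genes (10.9%), Malat1 among them. That count pools all intensities. The bright Malat1 probe sets lay further apart, from 2-fold lower to 1.35-fold higher. This SD holds only what differs between probe sets, be it error or the part of the RNA that is read. It is not the error of a difference between arrays.

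**Figure D4:**
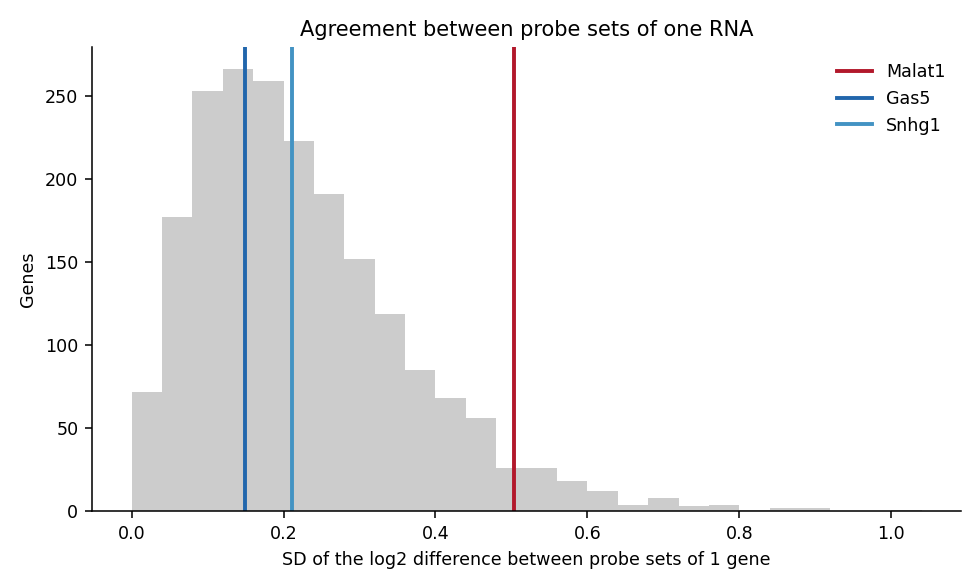
Histogram of the SD in log2 difference among the probe sets of a gene, over the 2028 genes with at least 3 probe sets over the floor on each array. Gas5 (0.15) and Snhg1 (0.21) lie near the median of 0.20, which spans genes of all intensities, and Malat1 (0.50) lies in the upper tail.

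Genes that work with these RNAs were compared through lists, each gene by its probe set of highest mean log2 intensity. Over all 11048 genes above the floor, 3.91% were 1.5-fold lower and 1.75% were 1.5-fold higher (2.6% and 2.75% after quantile normalization), and the median log2 difference of the genes above the floor on both arrays was -0.02. The 6 RNAs had a median of -0.32 on this reading.

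Other snoRNA hosts were close to level. Of 13 measured, 10 were above the floor, 1 was 1.5-fold lower and 0 were 1.5-fold higher, with a median of -0.03. The exception, Snhg17, was dim and read 279 on the array labelled GFP against 174 on that labelled Satb1, 1.60-fold lower, and its log2 difference of -0.68 was -0.56, within 1.5-fold, after quantile normalization. The bright hosts Snhg8 (9938 and 9369) and Zfas1 (9818 and 9663) differed by -0.09 and -0.02. Snhg10 (-0.38) and Dancr (-0.21) had the next largest differences.

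Among other long noncoding RNAs, 15 were measured and 11 were above the floor, with a median log2 difference of -0.14, or -0.05 after quantile normalization. Of these, 1 was 1.5-fold lower and 1 was 1.5-fold higher by their brightest probe sets. The lower one was Kcnq1ot1, a nuclear antisense RNA that silences an imprinted cluster, at 1260 on the array labelled GFP against 655 on that labelled Satb1. Its 4 probe sets over the floor on each array were all lower, by log2 differences from -1.78 to -0.94, while the other 2 of its 6 were below the floor. The higher one was Rian, an imprinted maternal transcript, at 78.1 and 131, read by a single probe set, its other 3 being under the floor. Norad (10279 and 9725) and Tug1 (3756 and 3451), the brightest of the list, differed by -0.08 and -0.12. Meg3 was higher by 0.37 in its brightest probe set, and most of its 11 probe sets were below the floor on both arrays. A dimmer probe set of Pvt1 was over 1.5-fold lower, at -0.93, and fell below the floor on the array labelled Satb1.

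Genes for proteins of the bodies that Neat1 and Malat1 occupy were mostly within 1.5-fold. Of 15 measured paraspeckle protein genes 1 was 1.5-fold lower, 0 were 1.5-fold higher and the median was 0.05, by their brightest probe sets. A dimmer probe set of Smarca4 was over 1.5-fold higher, at 0.66. Taf15, an RNA-binding protein of the FET family, read 894 on the array labelled GFP against 580 on that labelled Satb1, a log2 difference of -0.62, while its other probe set read 92.3 and 112. Sfpq, a core paraspeckle protein, was higher by 0.30 and Tardbp, the TDP-43 gene, by 0.34 in their brightest probe sets, and each had other probe sets that went the other way. Hnrnpk and Matr3, the brightest genes of the list, were higher by 0.12 and 0.11, each with a dimmer probe set that was lower.

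Of 15 measured nuclear speckle genes 0 differed by 1.5-fold in either direction in their brightest probe sets, with a median of -0.01. Son, a speckle scaffold protein, read 10183 on the array labelled GFP against 8042 on that labelled Satb1 (-0.34), and the splicing factor gene Srsf2 was higher by 0.30. Acin1 read -0.14 by its brightest probe set and 0.40 by the other. Of the 7 Son probe sets 2 were higher, and Srsf2 had a dim one that was lower. A dimmer probe set of Rnps1 was over 1.5-fold lower, at -0.60. Srsf1, with Srsf2 the brightest of the list, was higher by 0.09.

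Genes of the machinery that packages snoRNAs were all within 1.5-fold where measured. Of 16 measured snoRNP and assembly genes 0 differed by 1.5-fold, with a median of 0.03. Nop58 and Nop56, core proteins of box C/D particles, read 0.29 and -0.19, and a second Nop56 probe set read 0.07. Shq1, an assembly factor of box H/ACA particles, differed by -0.18, while the box H/ACA proteins Nhp2 and Nop10 read 0.16 and -0.01 by their brightest probe sets and 0.37 and 0.15 by the others. Of 13 measured nonsense-mediated decay genes, 12 were above the floor, 0 differed by 1.5-fold in their brightest probe sets and the median was 0.04. The kinase gene Smg1 differed by -0.41, its partner Smg8 by -0.44, the exon junction gene Rbm8a by 0.17 and the release factor gene Gspt1 by 0.12. Dimmer probe sets of Smg6 and Smg1 were over 1.5-fold lower, at -0.92 and -0.60.

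**Figure D5:**
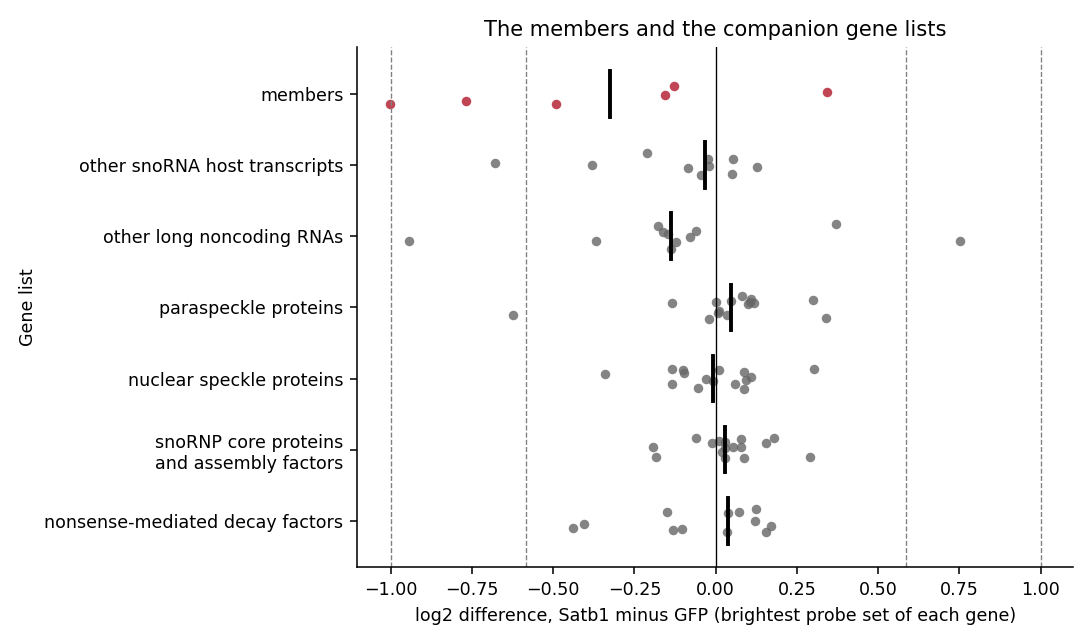
The log2 difference (Satb1 minus GFP) of each gene above the floor on both arrays, by its brightest probe set, for the 6 RNAs (red) and 6 companion lists (grey), with medians as black bars and dashed lines at 1.5-fold and 2-fold. Points beyond 1.5-fold are Malat1, Neat1, Snhg17, Kcnq1ot1, Rian and Taf15.

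For each RNA, the gene whose pair of log2 intensities lay closest to that of its brightest probe set was looked up, as a description over 2 arrays. The closest gene to Neat1 was Snord104, a snoRNA gene, at 2980 on the array labelled GFP against 1686 on that labelled Satb1 and a Euclidean distance of 0.10. Which form of the Snord104 transcript is read is not stated in the sources used here. Mndal was closest to Malat1 (0.24), Cdk2ap1 to Gas5 (0.04), Metap2 to Snhg1 (0.05), Pank3 to Snhg3 (0.02) and Ydjc to Snhg12 (0.01). With 2 arrays such closeness reflects brightness and a single difference only.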

How the data were processed

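RNA of 1 sample per group was measured on 1 array each. The deposited intensity values were made by the authors with MAS5, per the submitters' processing notes; the version, the scaling target and the genome build are not stated there. Both arrays had a trimmed mean of 497 (2% removed at each end). Arrays have no sequencing depth; having 1 array per group is what limits precision.

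Of 45037 probe sets, 34945 had 1 gene symbol, 932 several and 9160 none; 34741 of the 34945 were matched by Entrez ID to the gene table of GRCm38.p6. Intensities were floored at 61.7 and log2 differences taken, without further normalization, in Python 3.11.15 with pandas 2.3.3. Differences of 1.5-fold and 2-fold were counted. Scripts were tested on simulated data. No test was made.

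The members and lists were chosen with earlier results of these data known. Named are all member probe sets and, per list, up to 3 genes above the floor with the largest difference and the 2 brightest, plus the closest gene to each member. Alternatives were other floors, quantile normalization, median-centring, omission of probe sets ending in _x_at or _s_at, and other summaries over probe sets.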

Additional observations from a re-analysis of the deposited data

How the results depend on the processing

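Each of 9 values was recomputed under 6 or 8 alternatives, 66 in all, and 55 moved by less than the SD between probe sets of 1 gene or, for counts, by no more than 1.5 times. Part of this was fixed in advance. The brightest probe set of each gene lay above every floor tried, so the other floors could not change its value. Snhg3 and Snhg12 have 1 probe set each, so neither the omission nor the other summaries could change theirs. The count of probe sets past 2-fold was 2, and 1 with median-centred differences and 1 without probe sets ending in _x_at or _s_at. Without those probe sets the brightest Malat1 value reversed, from 2-fold lower to a log2 difference of 0.44, because the brightest one left is the one that went the other way; the mean over all 7 was -0.61 and the median -0.68. The Gas5 value went from -0.13 to between 0.02 and 0.07 under those same 3 choices. The mean over both Neat1 probe sets was -0.27 against -0.77, and Snhg1 went from 0.34 to 0.10 by the mean and 0.19 by the median. The count past 1.5-fold ran from 4 to 7 around 6. Of all probe sets 1.5-fold apart, 75.3% were lower, and 54.5% after quantile normalization; at 2-fold the shares were 83.2% and 64.1%. For genes they were 69.1% and 48.6% at 1.5-fold and 76% and 52.6% at 2-fold. No paired analysis was possible because each group had 1 array, and no array could be left out.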

Other observations

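Long noncoding RNA genes outside the 6, taken by their biotype in the gene table, were examined as a set added after values were seen. Of their 355 probe sets above the floor, 12.1% were 1.5-fold lower on the array labelled Satb1 and 2.54% were 1.5-fold higher, against 4.50% and 2.49% of 19660 probe sets of protein-coding genes. Most of these probe sets were dim: 229 had a mean intensity under 200, where 13.1% were 1.5-fold lower against 9.70% for protein-coding genes. At 200 to 500, 11 of 82 (13.4%, 70 genes measured) were 1.5-fold lower against 5.14%. At 500 to 2000, 2 of 29 (6.90%, 26 genes measured) were, against 1.29%. Among the 15 over 2000, 0 were 1.5-fold apart in either direction, with a median log2 difference of -0.02. Kcnq1ot1 had 2 such lower probe sets at 500 to 2000, with log2 differences of -0.94 and -1.20, and another at 200 to 500 (-1.78). If Kcnq1ot1 has this biotype, the whole count of 2 at 500 to 2000 came from a single gene. Probe sets of one gene are not independent, so these shares are not counts of genes.

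Only 3 probe sets were given to a single snoRNA gene. Snord104 read 2980 on the array labelled GFP against 1686 on that labelled Satb1, a log2 difference of -0.82. Whether its probe set measures the snoRNA, a precursor or a host transcript is not stated in the sources used here. It stood among the 13 lowest bright probe sets, a cutoff set by the rank of Neat1, with 2 of Malat1 and 1 of Neat1. The lowest of the 13 were those of Scin (-2.03), Gzmb (-1.85), Mcpt8 (-1.68) and Slpi (-1.43). Snord89 read 219 and 195 (-0.17), and Gm26504 was below the floor on both arrays.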
